A study of Mus musculus with 6 samples.

Results

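Peptides reach the surface of a cell on 2 kinds of MHC molecule, and the 10 genes described here cover both kinds and the machinery that loads them. They were chosen by name from a table of 43346 genes: the class I heavy chain genes H2-K1 and H2-D1 with the class I light chain gene B2m, the peptide transporter genes Tap1 and Tap2, the immunoproteasome subunit genes Psmb8 and Psmb9, and the class II genes Cd74, H2-Aa and H2-Ab1. All 10 were found, and all 10 passed the filter on low counts. In mm10, 8 of them lie in the H2 complex on chromosome 17, B2m on chromosome 2 and Cd74 on chromosome 18. RNA came from the cerebellum of 6 mice aged 15 months, 3 wild-type (Tmem106b+/+, WT) and 3 that carried a knockout allele of Tmem106b on both chromosomes (Tmem106b-/-, KO), with 1 female and 2 males in each genotype and 1 library per mouse. Replicate 1 is the female in both genotypes. How the allele was made and the strain background are not given in these sources. The protein TMEM106B sits in the membranes of late endosomes and lysosomes, and the title of the study sets its loss beside death of Purkinje cells and motor deficits.

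Class I molecules present peptides that the proteasome cuts from proteins of the cell's own cytosol. TAP1 and TAP2 together pump these peptides into the endoplasmic reticulum, where they are loaded onto a heavy chain paired with beta-2-microglobulin. Interferon exchanges standard catalytic subunits of the proteasome for immunoproteasome subunits such as PSMB8 and PSMB9. Class II molecules present peptides made in endosomes and lysosomes, and the invariant chain, encoded by Cd74, guides the class II alpha and beta chains there and fills their groove until cathepsins remove it. In the healthy brain class II genes are expressed mainly by macrophages at its borders and in the choroid plexus and by few microglia, while class I genes are expressed more widely.

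Class I and class II promoters share a short module, bound by RFX, CREB-type and NF-Y factors, on which the co-activators NLRC5 and CIITA assemble. RefSeq (GRCm38.p6, the assembly that mm10 names) gave promoter windows for 7 of the members. The 160 bases before the annotated start are printed for the 4 members in which a script found TGACG followed on the same strand by ATTGG, with 15 to 25 bases between them, and these bases are in capitals. The windows are chr17:34000334-34000493 (minus strand) for H2-K1, chr17:35262934-35263093 (plus) for H2-D1, chr2:122147527-122147686 (plus) for B2m and chr17:34287824-34287983 (minus) for H2-Aa.
H2-K1: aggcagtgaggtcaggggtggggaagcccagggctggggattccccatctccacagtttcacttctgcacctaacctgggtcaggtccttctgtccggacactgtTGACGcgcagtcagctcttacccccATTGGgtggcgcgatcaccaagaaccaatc
H2-D1: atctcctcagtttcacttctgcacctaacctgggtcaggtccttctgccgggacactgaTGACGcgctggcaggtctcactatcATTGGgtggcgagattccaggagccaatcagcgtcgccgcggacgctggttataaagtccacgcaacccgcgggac
B2m: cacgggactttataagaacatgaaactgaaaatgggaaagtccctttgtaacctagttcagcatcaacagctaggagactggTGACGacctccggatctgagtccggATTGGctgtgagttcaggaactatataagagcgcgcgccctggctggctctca
H2-Aa: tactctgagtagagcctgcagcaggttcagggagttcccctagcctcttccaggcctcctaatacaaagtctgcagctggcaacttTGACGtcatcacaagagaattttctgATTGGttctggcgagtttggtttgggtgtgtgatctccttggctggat

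The spacing between the capitals was 20 bases in H2-K1, H2-D1 and B2m and 21 bases in H2-Aa. The module was searched for on both strands in the 250 bases before each start, and 0.381% of 32851 such windows held it. The spacing was set after these promoters had been read, so the share is a description. The letters GGGGATT followed at once by CCCC, an NF-kappaB site, stood in the windows of H2-K1 and H2-D1 and in 0.0304% of all windows. B2m held GAAA, any 2 bases and GAAA again, the core of an interferon response element, 130 to 139 bases before its start, as did 2.98% of all windows. The Tap1 and Psmb9 windows share 275 of their 300 bases, since these genes are read away from each other from starts that lie 226 bases apart.

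The mice carried the genotypes on their labels as far as the table can show. WT mice had a Tmem106b level of 245 ± 19.4 CPM (read counts scaled to library size by TMM), and KO mice 66.8 ± 3.64 CPM (SD, n = 3 mice per genotype). Library totals ran from 25245778 to 31135185 counts. WT replicate 1 stood apart on the first principal component and KO replicate 1 on the second, so both females lie apart from the males of their genotype. In bulk tissue, fewer cells of a type and less RNA per cell cannot be told apart.

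No member passed the test between genotypes. In edgeR's quasi-likelihood test with sex in the model, 0 of 10 passed a Benjamini-Hochberg adjusted p of 0.05 over all 16934 genes tested, against 0.283% of all genes, and the adjusted p of the members ran from 0.519 to 0.98. DESeq2, which called 1.43% of the genes it adjusted, and limma-voom, which called 0.301%, also called 0 members. At an unadjusted p under 0.05 there was 1 member, B2m, where 8.96% of all genes stood below that p. The log2 fold changes, KO over WT, lay between -0.28 and 0.18 with a median of 0.09 and 6 of 10 above 0. The median of all genes tested was 0.00029. The WT and KO libraries did not overlap in 1 member, B2m, which was the case in 14.1% of all genes, 7.77% with KO higher.

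**Figure D1:**
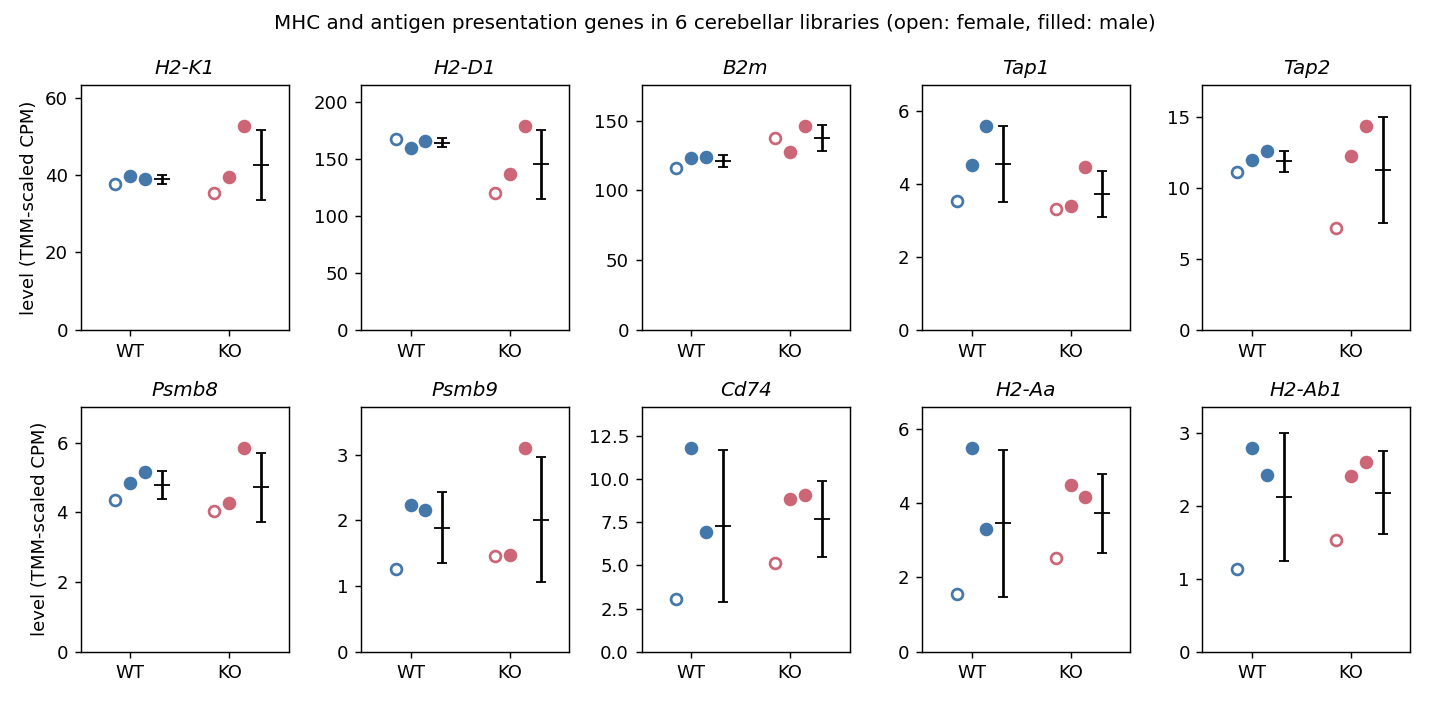
Each panel plots 1 gene in TMM-scaled CPM, with 1 point per library (open circles female, filled circles male) and a bar for the mean and SD of the 3 libraries of a genotype. Only in B2m do the 3 KO points all lie above the 3 WT points. In each genotype the open circle lies below the filled ones in Cd74, H2-Aa and H2-Ab1, and also in H2-K1, Tap1, Tap2, Psmb8 and Psmb9.

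Class I light and heavy chains were the most abundant members. Per length, over the 6 libraries, B2m had a mean of 150 RPKM (reads scaled to gene length and library size), H2-D1 60.1, H2-K1 15.6, Cd74 5.30, Tap2 3.06, H2-Aa 1.92, Psmb8 1.74, H2-Ab1 1.31, Tap1 0.754 and Psmb9 0.533 RPKM. The ranges of B2m, H2-D1, H2-K1 and Cd74 did not overlap with that of the next in this order, except that Cd74 (2.17 to 8.39 RPKM) overlapped Tap2 (1.89 to 3.80 RPKM). All later neighbours overlapped as well. H2-Aa exceeded Psmb8 in only 3 of 6 libraries, so these levels had no order, whereas Tap2 exceeded H2-Aa, Psmb8 exceeded H2-Ab1 and H2-Ab1 exceeded Tap1 in 6 of 6. This order rests on the gene lengths used. Without them H2-D1 had a mean of 155 CPM against 129 CPM for B2m, and Tap1 4.13 CPM against 2.15 CPM for H2-Ab1.

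B2m (ENSMUSG00000060802, chromosome 2, 122147686 to 122153083) encodes the light chain that all classical class I molecules need to reach the surface. WT mice 1 to 3 had 116, 123 and 124 CPM, and KO mice 1 to 3 had 138, 128 and 146 CPM. Every KO mouse lay above every WT mouse, with the smallest gap between KO replicate 2 and WT replicate 3. The log2 fold change was 0.18 (SE 0.07, 95% interval 0.01 to 0.35), which is 13.4% more in KO, with an unadjusted p of 0.0378 and an adjusted p of 0.519 in edgeR. It therefore did not pass over all genes. With offsets for GC content and length the log2 fold change was 0.082 (SE 0.064, unadjusted p 0.227, edgeR adjusted p = 0.677). No word of 50 bases of its transcripts occurs in those of another gene, so its reads can be assigned without a paralog.

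H2-D1 (ENSMUSG00000073411, chromosome 17, 35262730 to 35267499), a classical heavy chain, gave the opposite sign. Its level was 168, 160 and 166 CPM in WT and 120, 137 and 179 CPM in KO replicates 1 to 3. The WT mice were close together, KO replicates 1 and 2 lay below all of them and KO replicate 3 above all of them. The log2 fold change was -0.19 (SE 0.12, 95% interval -0.47 to 0.10, edgeR adjusted p = 0.726). Leaving out WT replicate 1 gave -0.042 and leaving out KO replicate 3 gave -0.33, where the adjusted p in edgeR was 0.122. H2-K1 (ENSMUSG00000061232, chromosome 17, 33996017 to 34000333), the other classical heavy chain, was at 37.7, 39.8 and 39.1 CPM in WT and 35.4, 39.5 and 52.7 CPM in KO. KO replicate 3 stood above all other libraries and KO replicate 1 below them. The log2 fold change was 0.12 (SE 0.12, 95% interval -0.16 to 0.40, edgeR adjusted p = 0.826), and it was -0.02 without KO replicate 3.

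**Figure D2:**
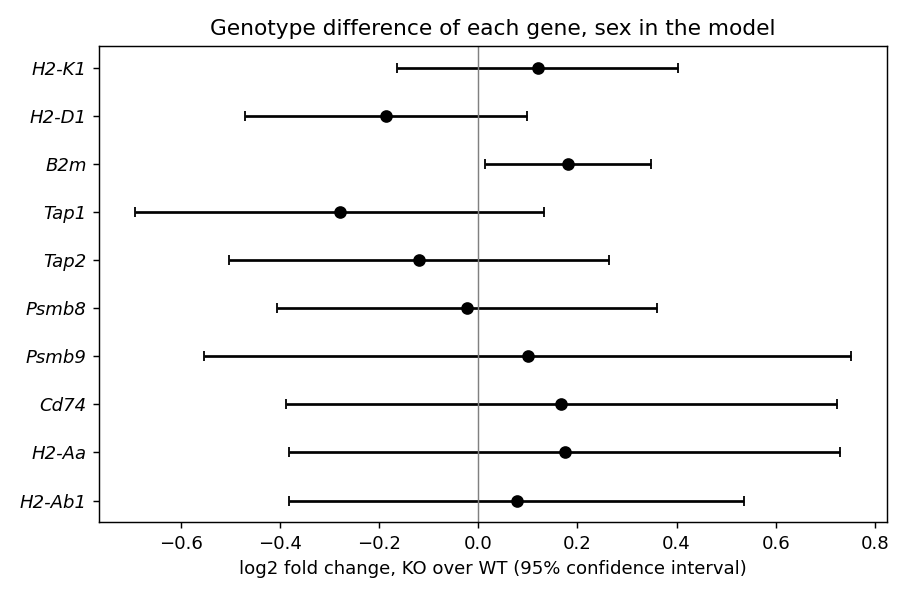
Points give each gene's log2 fold change, KO over WT, from the model with sex, and bars its 95% confidence interval. Intervals of the class I genes are narrow and those of Psmb9, Cd74 and H2-Aa wide; 9 of 10 include 0 and that of B2m starts at 0.01.

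Within each library the 2 heavy chains stood in a ratio whose values did not overlap between genotypes. H2-K1 reads were 0.225, 0.249 and 0.236 of H2-D1 reads in the WT mice, against 0.294, 0.288 and 0.294 in the KO mice, in replicate order. All 3 KO values lay above all WT values, and the means were 0.237 ± 0.0122 and 0.292 ± 0.00383 (SD, n = 3 each). The ratio of B2m to H2-D1 reads was also higher in each KO library, at 0.817 to 1.15 against 0.694 to 0.771 in WT. An exact two-sided permutation test over the 6 libraries gave p = 0.1 for each of these 2 ratios, the smallest that 3 against 3 allows, and an adjusted p of 0.35 over the 7 ratios compared. The ratios were chosen after the counts had been seen. The 3 KO values of H2-K1 to H2-D1 lay close together although each gene alone spanned 1.49-fold over the KO libraries.

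Both heavy chains share sequence with other class I genes, and no source used here says how reads with several matches were treated. Of the distinct words of 50 bases in their transcripts (GENCODE M21), 9.63% in H2-K1 and 12.8% in H2-D1 also occur in a transcript of another gene, most often H2-Q10 and H2-Q1. With words of 100 bases the shares were 0.957% and 3.59%. Reads from these stretches are uncertain, so part of either gene's count may belong to a paralog, and their part in the ratio was not tested. Whether WT and KO mice carried the same H2 haplotype is not given in these sources and was not tested either.

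**Figure D3:**
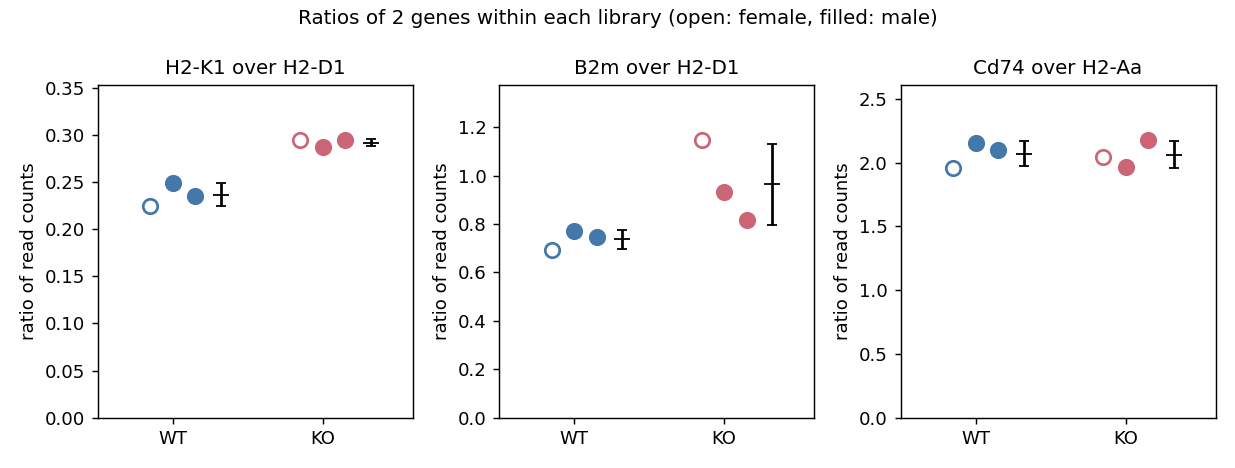
Each point is the ratio of the read counts of 2 genes within 1 library (open circles female, filled circles male), with the mean and SD of 3 libraries beside them. H2-K1 over H2-D1 and B2m over H2-D1 separate the genotypes, and Cd74 over H2-Aa runs from 1.96 to 2.17 in both.

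The transporter and immunoproteasome genes lie side by side on chromosome 17, and in each of them the groups overlapped. Tap1 (34187553 to 34197225), one partner of the peptide pump, was at 3.53, 4.51 and 5.59 CPM in WT and 3.30, 3.40 and 4.45 CPM in KO, with a log2 fold change of -0.28 (SE 0.18, 95% interval -0.69 to 0.13, edgeR adjusted p = 0.716), or -0.14 without KO replicate 2. Each KO library lay below the WT library of the same rank. Tap2 (34203527 to 34216321), the other partner, was at 11.1, 11.96 and 12.6 CPM in WT and 7.16, 12.3 and 14.4 CPM in KO. Only KO replicate 1 was low, and the log2 fold change of -0.12 (SE 0.17, 95% interval -0.50 to 0.26, edgeR adjusted p = 0.868) was 0.11 without it.

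Psmb8 (34197721 to 34201454) encodes the immunoproteasome subunit that takes the place of PSMB5. Its level was 4.36, 4.84 and 5.16 CPM in WT and 4.05, 4.26 and 5.86 CPM in KO, with a log2 fold change of -0.02 (SE 0.17, 95% interval -0.41 to 0.36, edgeR adjusted p = 0.98). Psmb9 (34181988 to 34187764), which takes the place of PSMB6, had only 37 to 86 counts per library and the widest interval. It was at 1.26, 2.24 and 2.16 CPM in WT and 1.46, 1.48 and 3.11 CPM in KO, with KO replicate 3 above all others. The log2 fold change was 0.10 (SE 0.29, 95% interval -0.55 to 0.75, edgeR adjusted p = 0.939), and -0.24 without KO replicate 3. In the gene models that were counted, unlike with the RefSeq starts given above, Psmb9 and Tap1 overlap by 212 bases on opposite strands. Without a stated strand setting reads there cannot be told apart.

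KO replicate 3 held the highest level of H2-K1, H2-D1, B2m, Tap2, Psmb8 and Psmb9 among the 6 libraries, while KO replicate 1 held the lowest of H2-K1, H2-D1, Tap1, Tap2 and Psmb8. The summed level of the 3 class I genes was 322, 323 and 329 CPM in WT against 293, 304 and 378 CPM in KO. That of the 4 processing genes was 20.3, 23.6 and 25.5 CPM in WT and 16.0, 21.4 and 27.8 CPM in KO. Both sums thus spread further in KO than in WT around means that overlap. The summed level of 15 microglial markers was 229 to 284 CPM in WT and 352 to 415 CPM in KO, and Emr1 and Fcrls among them were higher in edgeR. Their part in the levels of the class I genes was not tested.

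Class II genes had log2 fold changes slightly above 0, well inside the spread between mice. Cd74 (ENSMUSG00000024610, chromosome 18, 60803848 to 60812646), the invariant chain, was at 3.06, 11.8 and 6.94 CPM in WT and 5.15, 8.82 and 9.05 CPM in KO. The WT mice alone spanned the whole range, and the log2 fold change was 0.17 (SE 0.24, 95% interval -0.39 to 0.72, edgeR adjusted p = 0.871). H2-Aa (ENSMUSG00000036594, chromosome 17, 34282744 to 34287827), the alpha chain of the I-A molecule, was at 1.56, 5.50 and 3.30 CPM in WT and 2.52, 4.50 and 4.16 CPM in KO (0.17, SE 0.24, 95% interval -0.38 to 0.73). H2-Ab1 (ENSMUSG00000073421, chromosome 17, 34263209 to 34269418), its beta chain, was at 1.13, 2.80 and 2.43 CPM in WT and 1.53, 2.40 and 2.61 CPM in KO (0.08, SE 0.20, 95% interval -0.38 to 0.54). In the males alone the 3 fold changes were -0.08, -0.03 and -0.07, so the sign with all mice rests on the females.

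Cd74 and H2-Aa kept close proportions from mouse to mouse. Cd74 spanned 3.86-fold over the 6 libraries and H2-Aa 3.52-fold, yet the ratio of their reads stayed between 1.96 and 2.17. H2-Ab1 followed less closely, with a ratio of its reads to those of H2-Aa from 0.509 to 0.735. In the same libraries B2m spanned 1.26-fold. Among 14773 genes whose mean reached 1 CPM, the members left out, Slc2a9 (Pearson r = 0.996 of log2 CPM over 6 libraries), Wtip (0.995) and Col4a3 (0.993) were most like Cd74. Those most like B2m were Zfp955a (0.999), Supt20 (0.988) and Ctso (0.988). An r over 6 libraries rests on few points, and these share depth and tissue composition. Of the 14773 genes, 147 had an r above 0.9 with Cd74 and 63 with B2m.

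Libraries from females held the lowest class II levels in both genotypes. Cd74 was at 3.06 and 5.15 CPM in the WT and KO female against 6.94 to 11.8 CPM in the 4 males, H2-Aa at 1.56 and 2.52 against 3.30 to 5.50 CPM, and H2-Ab1 at 1.13 and 1.53 against 2.40 to 2.80 CPM. The sex term of the same model gave log2 differences, female over male, of -1.18 (SE 0.27), -1.12 (SE 0.27) and -0.95 (SE 0.23) for Cd74, H2-Aa and H2-Ab1. Their adjusted p in edgeR was 0.595, 0.621 and 0.597, so 0 of the 3 passed where 0.0354% of all genes did, and 5 of all 10 members had an unadjusted p under 0.05 (6.68% of all genes), all 5 lower in females (3.45%). DESeq2 called Cd74 (adjusted p = 0.00801, with 0.373% of genes called) and limma-voom called 0 members. Both females lay below all 4 males in 6 of the 10 members (H2-K1, Tap2, Psmb9 and the 3 class II genes), which was so for 6.25% of all genes. This comparison was made after the values had been seen, and 2 females are too few to separate sex from other features of these libraries.

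Choroid plexus markers also varied widely between libraries. The choroid plexus is the fringed tissue in the ventricles that makes cerebrospinal fluid, and pieces of it can stay attached to the cerebellum. The summed level of 9 markers of this tissue was 82.0, 4727 and 3127 CPM in the WT mice 1 to 3, against 1644, 5084 and 1626 CPM in the KO mice 1 to 3, with all 9 detected in every library. Most of that sum was Ttr. The median log2 level of the 9 markers, relative to WT, was -3.10, 1.73 and 1.37 in the WT mice and 1.18, 1.73 and 0.40 in the KO mice. With a choroid plexus score in the model in place of sex, the slope of Cd74 was 0.32 (SE 0.09) on the log2 scale per doubling of that score, that of H2-Aa 0.31 (SE 0.09) and that of H2-Ab1 0.23 (SE 0.08). The adjusted p in edgeR was 0.292, 0.359 and 0.618, so none of these slopes passed. The genotype differences of the 3 genes in that fit were -0.09, -0.07 and -0.11, and those of B2m and H2-D1 were 0.17 and -0.15, close to their values with sex. The part of choroid plexus tissue in the class II levels was not otherwise tested.

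**Figure D4:**
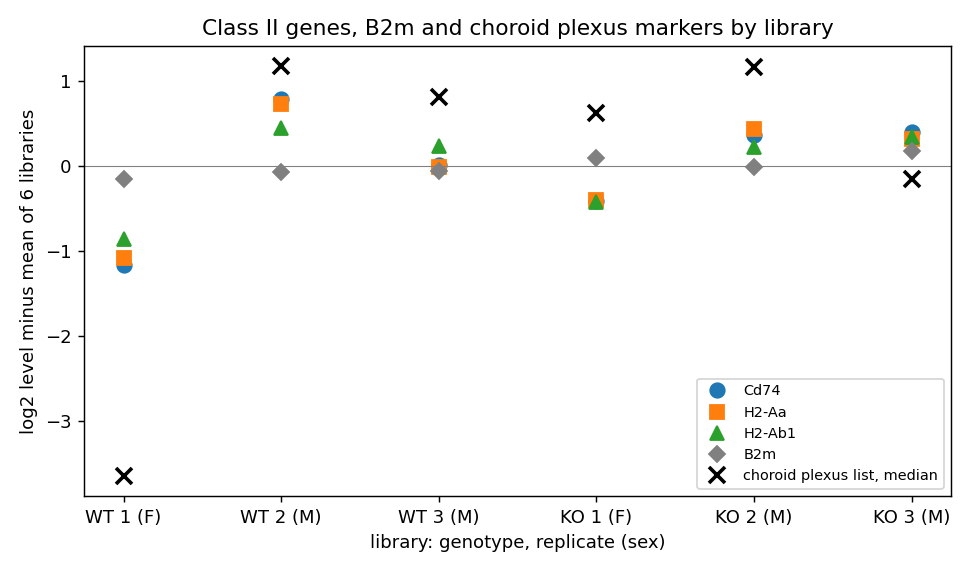
For each library, points give the log2 level of Cd74, H2-Aa, H2-Ab1 and B2m and the median log2 level of 9 choroid plexus markers, each minus its mean over the 6 libraries. The 3 class II genes lie together and are lowest in the females WT 1 and KO 1, the choroid plexus markers are lowest in WT 1, and B2m stays near 0.

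Markers of immune cells other than microglia, some of which can carry class II, were mostly low. Border macrophage and monocyte markers, such as the mannose receptor gene Mrc1, had a summed level of 6.75 to 8.47 CPM in WT and 8.97 to 11.2 CPM in KO, with 0 of 9 tested genes past the threshold in edgeR and 0 at an unadjusted p under 0.05. Of 8 dendritic cell markers, 4 were tested, and Xcr1, Clec9a and Ccr7 had at most 4 counts in any library. The sum of that list (113 to 119 CPM in WT and 108 to 115 CPM in KO) came mostly from Flt3 and Zbtb46, which also have other sources. The median log2 fold change of the 4 tested was -0.08, with 1 above 0 and 3 below. Flt3 was at -0.26 (SE 0.10, edgeR adjusted p = 0.469), lower in KO without overlap. Zbtb46 was at -0.03 (SE 0.07) and Cd209a at -0.13 (SE 0.45). Itgax, which microglia can also express, was at 1.90, 0.395 and 0.404 CPM in WT and 3.70, 3.09 and 4.49 CPM in KO, without overlap (2.26, SE 0.45, edgeR adjusted p = 0.124). Of 13 T and NK cell markers 2 were tested, with Cd3e at 0 to 8 counts, and the list summed to 4.11 to 4.51 CPM in WT and 4.09 to 5.93 CPM in KO. B and plasma cell markers summed to 6.46 to 7.95 CPM in WT and 8.17 to 10.9 CPM in KO, mostly from Ighm, and Cd22 was at 0.565, 0.395 and 0.742 CPM in WT and 1.93, 1.48 and 1.16 CPM in KO, without overlap (1.40, SE 0.31, edgeR adjusted p = 0.156). Itgax and Cd22 were named after their values were seen. Their part in the class II levels was not tested.

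The wider pathway was described through 10 lists by role, with 91 genes besides the members, of which 79 were tested. Over all genes 1 passed, the cathepsin S gene Ctss, which was higher in KO (0.136% of all genes passed with KO higher), and 9 had an unadjusted p under 0.05 (8.96% of all genes). DESeq2, limma-voom and the fit with GC content and length offsets, in which 1.6% of all genes passed, also called 1 of these genes each. The median log2 fold change of the 79 was -0.09, with 29 above 0 and 50 below. Of those below 0, 22 were among the 24 interferon-stimulated genes. Of all genes tested, 8481 lay above 0 and 8453 below. The WT and KO libraries did not overlap in 9 of the 79, 5 with KO higher and 4 with KO lower, against 14.1% of all genes.

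**Figure D5:**
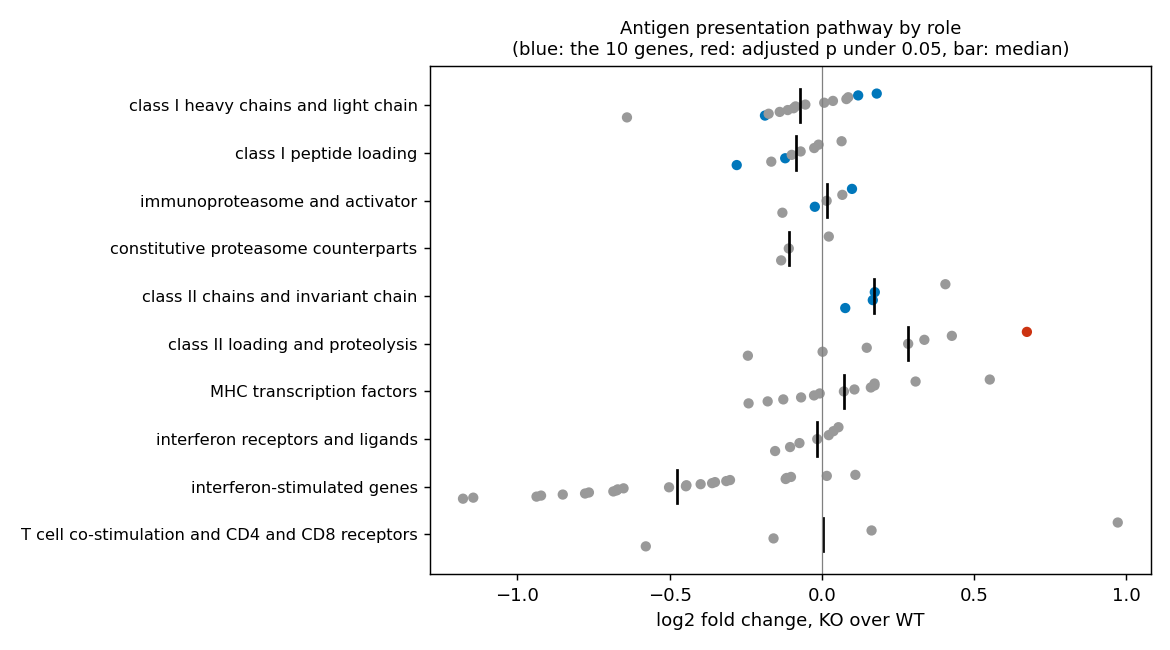
Each point is the log2 fold change, KO over WT, of 1 tested gene in the list named on the axis, and the bar is the list's median; the 10 chosen genes are blue and count in their lists. The only red point, a gene past the adjusted p of 0.05, is Ctss; interferon-stimulated genes lie mostly below 0.

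Among class I chains, 14 of 15 were tested and 0 passed, with a median of -0.07. The non-classical heavy chain gene H2-T24 was at 2.23, 2.37 and 2.76 CPM in WT and 1.69, 1.51 and 1.52 CPM in KO, so the groups did not overlap (-0.64, SE 0.20, edgeR adjusted p = 0.346). H2-T23, which encodes Qa-1, was at -0.11 (SE 0.16), H2-M3 at -0.14 (SE 0.18) and the Fc receptor gene Fcgrt at -0.09 (SE 0.12). Peptide loading genes had a median of -0.08 and 0 of 8 passed. Tapbp, which bridges the transporter and the heavy chain, was at -0.10 (SE 0.09), the chaperone genes Calr and Pdia3 at -0.17 (SE 0.14) and -0.07 (SE 0.10), and the peptide trimming enzyme gene Erap1 at 0.07 (SE 0.11).

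Immunoproteasome genes and their standard counterparts had 0 of 5 and 0 of 3 past the threshold. The third immunosubunit gene, Psmb10, was at -0.13 (SE 0.22), and the activator genes Psme1 and Psme2 at 0.07 (SE 0.10) and 0.02 (SE 0.12). Psmb5, Psmb6 and Psmb7 were at -0.13 (SE 0.13), -0.11 (SE 0.10) and 0.02 (SE 0.07).

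In the class II lists, H2-Eb1, the beta chain of I-E, was at 1.13, 3.76 and 3.67 CPM in WT and 2.24, 4.70 and 3.80 CPM in KO (0.41, SE 0.21, edgeR adjusted p = 0.646), again lowest in the females. H2-DMb1, part of the peptide editor of class II, was at 0.34 (SE 0.22), and Ifi30, a reductase that opens disulfide bonds of endosomal antigens, at 0.28 (SE 0.14). Ctss, the protease that removes the last part of the invariant chain, was at 62.0, 53.8 and 59.7 CPM in WT and 96.0, 86.4 and 97.5 CPM in KO. It rose by 0.67 on the log2 scale (SE 0.08, 95% interval 0.49 to 0.86, edgeR adjusted p = 0.0214) with no overlap between groups. Ctsl, a second protease of this step, was at 0.15 (SE 0.06, edgeR adjusted p = 0.548), also without overlap. Thus 1 of 7 tested genes for class II loading and proteolysis and 0 of 4 class II chains passed. The call of Ctss was lost when WT replicate 2, WT replicate 3 or KO replicate 2 was left out, fits in which 1, 1 and 16 genes of the whole table passed (0.00582%, 0.00581% and 0.0929%). Microglia express Ctss, and the part of the microglial markers given above in its rise was not tested.

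Of 13 regulators of MHC genes tested, 0 passed. Nlrc5, the class I co-activator, was at 1.30, 1.68 and 2.76 CPM in WT and 1.65, 0.961 and 2.39 CPM in KO (-0.18, SE 0.37, edgeR adjusted p = 0.914). Ciita, the class II co-activator, had 2, 12 and 7 counts in WT and 7, 14 and 6 in KO and was too low to test. Irf8, a transcription factor of myeloid cells, had 2.30, 2.11 and 1.95 CPM in WT and 3.19, 3.06 and 3.08 CPM in KO, without overlap (0.55, SE 0.17, edgeR adjusted p = 0.342). Rfx5, Nfya and Creb1, which bind the shared promoter module, were at 0.17 (SE 0.09), 0.17 (SE 0.10) and 0.16 (SE 0.09), and of these only Creb1 did not overlap between groups. Nlrc5 and Ciita were named after their values were seen.

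Interferon signals drive class I and class II genes. Ifng had 0 counts in all 6 libraries, which allows up to 3 counts, or 0.0988 to 0.118 CPM, per library. The receptor and kinase genes Ifngr2, Ifnar2, Jak2 and Tyk2 were at -0.15 (SE 0.09), -0.10 (SE 0.10), 0.06 (SE 0.09) and -0.07 (SE 0.11), and 0 of 7 in that list passed. Of 24 interferon-stimulated genes 22 had a fold change below 0, with a median of -0.47, but 0 passed in edgeR and 4 had an unadjusted p under 0.05 (8.96% of all genes). The list's summed level was 246, 272 and 401 CPM in WT and 248, 239 and 274 CPM in KO, and WT replicate 3 alone lay above the KO range. Ifi27l2a was at -1.15 (SE 0.29, edgeR adjusted p = 0.224), Irf7 at -0.92 (SE 0.31, 0.41), Ifit3 at -0.78 (SE 0.29, 0.495) and Ifit1 at -0.76 (SE 0.32, 0.546). The groups overlapped in Ifi27l2a and Irf7 but not in Ifit1 and Ifit3. Ifit3 was at 38.4, 36.2 and 78.4 CPM in WT and 28.5, 27.6 and 31.8 CPM in KO. In WT replicate 3 H2-K1, H2-D1 and B2m stood at 39.1, 166 and 124 CPM, within 1.06-fold of the other WT libraries. Tap1, H2-T23 and Nlrc5 were at 5.59, 14.7 and 2.76 CPM in that library, each above all other libraries. No other member was highest there. Without WT replicate 3 the log2 fold change of Tap1 was -0.16.

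Co-stimulation, the second signal that antigen-presenting cells give to T cells, was covered by 4 tested genes. Cd86 was at 1.26, 1.28 and 1.42 CPM in WT and 3.82, 2.03 and 2.21 CPM in KO, with no overlap between groups (0.97, SE 0.24, edgeR adjusted p = 0.224). Icosl was at 0.16 (SE 0.14), Cd274, which encodes PD-L1, at -0.16 (SE 0.23) and Cd40 at -0.58 (SE 0.42). The receptors on the T cell side, Cd4, Cd8a and Cd8b1, had at most 14 counts in any library and were not tested.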

How the data were processed

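The deposited file is a table of raw counts per gene for 6 libraries, 1 per mouse. Per the submitters' processing notes, STAR was the aligner and mm10 the genome. Which tool counted the reads, with which strand setting and annotation, is not given in the sources used here. Counts of this depth limit low genes such as Psmb9 most, and the spread between mice (biological coefficient of variation 11.2%) limits abundant ones.

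The main test was run in edgeR 4.0.16 under R 4.3.3. Low genes were removed by filterByExpr (minimum count 10, minimum total 15), libraries were scaled by TMM, and genotype was tested with sex in the model (glmQLFit, robust, legacy version, residual degrees of freedom 3), two-sided, with Benjamini-Hochberg adjustment over all 16934 genes tested. SE was taken as the size of the log2 fold change over the root of F. RPKM uses the length in the table. Alternatives were other scaling, filters, DESeq2 1.42.0, limma-voom (limma 3.58.1), covariates, offsets for GC content (known for 99.0% of genes from GENCODE M21) and length, and leaving out libraries. The steps were tested on simulated counts.

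The members, the 10 pathway lists and the 11 marker lists were chosen with earlier results of these data known. Named genes were the members, those past the threshold and up to 4 with the lowest p in each pathway list. Of the marker lists, Purkinje cell markers had 5 of 8 lower in KO, endothelial 0 of 8, granule cell 0 of 8, neutrophil 0 of 3 and red blood cell 0 of 5 past the threshold in edgeR, with 8, 0, 2, 2 and 3 at an unadjusted p under 0.05 (0.283% and 8.96% of all genes). Some genes of the marker lists are not reported here.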

Additional observations from a re-analysis of the deposited data

How the results depend on the processing

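The count of 0 members past the threshold held under all 17 alternatives, and the median log2 fold change of the members stayed between -0.089 and 0.19. The number of genes changed in the whole table was 48. It was 75 with RLE size factors, 199 with no filter, 76 with a mean of at least 1 CPM, 232 in DESeq2, 111 in males only, 109 at an adjusted p under 0.10, 269 with GC content and length offsets, and 1 to 156 when 1 library was left out. The number of other pathway genes called was 2 with no filter and 0 to 1 when 1 library was left out. The cause was not tested.

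Members near 0 turned in sign without passing. In males only Tap2 was at 0.11, Psmb8 at 0.0069, Cd74 at -0.080, H2-Aa at -0.032 and H2-Ab1 at -0.070. With a choroid plexus score in place of sex, an alternative chosen after seeing the data, Cd74 was at -0.092, H2-Aa at -0.073 and H2-Ab1 at -0.11. With 1 library left out the log2 fold change ran from -0.020 to 0.22 for H2-K1, -0.24 to 0.12 for Tap2, -0.16 to 0.10 for Psmb8, -0.24 to 0.39 for Psmb9, -0.080 to 0.51 for Cd74, -0.033 to 0.50 for H2-Aa and -0.070 to 0.19 for H2-Ab1. H2-D1 (-0.33 to -0.042), B2m (0.14 to 0.25) and Tap1 (-0.37 to -0.14) kept their sign there and in the other alternatives, and B2m was lowest, at 0.082, with GC content and length offsets. The difference between females and males ran from -1.65 to -0.79 for Cd74, -1.53 to -0.78 for H2-Aa and -1.24 to -0.70 for H2-Ab1 with 1 library left out, from -0.12 to 0.0069 for B2m and from -0.40 to 0.0057 for H2-D1. Of the read ratios, the difference KO minus WT ran from -0.109 to 0.449 for B2m over H2-K1, -0.0864 to 0.00574 for Tap1 over Tap2 and -0.0654 to 0.0407 for Cd74 over H2-Aa with 1 library left out, while H2-K1 over H2-D1 and B2m over H2-D1 kept their sign. No paired analysis was possible because replicate numbers only follow the order of deposit, and codes in the sample titles, 1 of them shared by 1 WT and 2 KO libraries, are not explained by the labels.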
